A study of Homo sapiens with 10 samples.

Results

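The genes described here are 10 enzymes of nucleotide synthesis, taken as a named list and matched by symbol to the gene tables and peak lists of A549 and A549/DDP cells: CAD, DHODH, UMPS, CTPS1, CTPS2, RRM1, RRM2, TYMS, PPAT and IMPDH2. They were 10 of 58037 gene identifiers in the tables, of which 56993 had a symbol, and each of the 10 was found once and passed the filter on low counts. The enzymes were chosen by measured values among others: the list was drawn up with the contrast between the lines and the peak lists in view, and which of these values guided the choice was not recorded. For that reason the differences between the lines and the called peaks of the 10 enzymes are given as description, with no p-value of the contrast. A p beside a peak is the one the authors' peak caller gave it.

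Cells make pyrimidine nucleotides from small precursors. CAD carries out the opening steps, DHODH oxidizes dihydroorotate in mitochondria, UMPS completes UMP, and the CTP synthases CTPS1 and CTPS2 aminate UTP to CTP. Ribonucleotide reductase, built of the large subunit RRM1 and the small subunit RRM2, turns ribonucleotides into deoxyribonucleotides, and thymidylate synthase (TYMS) makes the thymidine nucleotide. On the purine side PPAT catalyses the committed step and IMPDH2 the step from IMP towards GMP. Dividing cells depend on these steps for RNA and DNA, and CTPS1 is known for its role in proliferating lymphocytes, while RRM2, RRM1 and TYMS are known for RNA that follows S phase.

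A549 is a human lung adenocarcinoma line and A549/DDP a cisplatin-resistant line (DDP is cisplatin). Both were grown in RPMI 1640 with serum at passage 10 or lower, with no treatment named in the labels. Each line had 2 libraries of input RNA and 2 m6A-seq libraries, for which poly(A) RNA fragments were pulled down with an antibody against N6-methyladenosine. A second pair of A549 inputs was labelled alike but for a full stop in the title. The A549/DDP inputs carry A549 in their cell line label and the resistant line in their cell type label, which was followed. The labels do not say how the resistant line was derived, whether it is 1 clone, or whether replicates were separate cultures, so p-values measure only the spread between these libraries.

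The inputs held 35286514 and 34570074 expected counts in A549 and 29225501 and 33971561 in A549/DDP, against 855034 and 982036 in the second A549 pair, where 75.2% and 73.9% fell on mitochondrial genes. The replicates of a line were not copies of 1 library: the chi-square between them, per degree of freedom, was 89.6 for A549 and 54.9 for A549/DDP. The epithelial markers KRT8 and KRT18 reached at least 1591 TPM (abundance scaled for transcript length and library total) in the 4 inputs of the main comparison. EPCAM lay between 2.45 and 6.95 TPM, and KRT19 was listed at 0 in 1 library. The 5 epithelial markers summed to 3684 and 7921 TPM in A549 and to 14741 and 14736 TPM in A549/DDP. Of the markers of other cells, CD3E was listed at 0, PTPRC was at most 0.06 TPM and 3 endothelial markers were at most 0.39 TPM. CD68 lay between 128 and 156 TPM, CD14 was at most 4.86 TPM and 4 fibroblast markers were at most 14.7 TPM. In bulk RNA fewer cells with a transcript and less of it per cell cannot be told apart.

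Sequences before a transcription start are shown for 4 of the genes, the pair of CTP synthases and the pair of reductase subunits. In these pairs, members of 1 enzyme family or complex stood apart in these libraries. Each line gives the 250 bases before a transcription start, 5′ to 3′ on the gene's strand, from RefSeq on GRCh38.p14. Capitals mark CCAAT on either strand. The windows lie at chr1:40979446-40979695 on the plus strand for CTPS1, chrX:16712670-16712919 on the minus strand for CTPS2, chr11:4094435-4094684 on the plus strand for RRM1 and chr2:10122489-10122738 on the plus strand for RRM2.
CTPS1: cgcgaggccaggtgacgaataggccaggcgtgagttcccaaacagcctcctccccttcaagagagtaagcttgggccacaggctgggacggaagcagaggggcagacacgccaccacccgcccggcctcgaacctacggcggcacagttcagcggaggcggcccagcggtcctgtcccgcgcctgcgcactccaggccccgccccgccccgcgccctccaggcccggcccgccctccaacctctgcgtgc
CTPS2: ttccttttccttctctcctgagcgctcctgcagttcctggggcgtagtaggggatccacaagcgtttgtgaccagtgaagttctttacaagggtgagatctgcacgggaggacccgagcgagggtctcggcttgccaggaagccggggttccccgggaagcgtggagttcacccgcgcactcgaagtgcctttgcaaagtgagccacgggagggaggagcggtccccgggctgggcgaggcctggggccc
RRM1: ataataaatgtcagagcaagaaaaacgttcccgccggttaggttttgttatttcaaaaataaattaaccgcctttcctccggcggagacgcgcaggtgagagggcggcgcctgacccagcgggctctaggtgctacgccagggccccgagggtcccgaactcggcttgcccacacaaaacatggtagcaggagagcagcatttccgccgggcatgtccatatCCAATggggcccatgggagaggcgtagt
RRM2: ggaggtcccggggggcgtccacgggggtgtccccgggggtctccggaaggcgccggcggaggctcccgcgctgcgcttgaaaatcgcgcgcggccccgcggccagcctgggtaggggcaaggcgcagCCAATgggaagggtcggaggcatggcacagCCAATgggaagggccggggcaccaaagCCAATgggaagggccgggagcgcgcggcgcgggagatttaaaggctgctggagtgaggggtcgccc

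The RefSeq table gave 12 windows for 9 of the 10 genes. The RRM2 window shown held CCAAT 3 times, at positions -123, -93 and -66 counted from its own transcription start. That start lies inside the RefSeq span of RRM2, which begins at 10122568, and so do the 3 matches. Another RRM2 window, chr2:10122318-10122567, ends just before the span and held CCAAT at -249. The CTPS2 window shown also lies mostly within the span of its gene, chrX:16587999-16712910. RRM1 held CCAAT once, at -28. CCAAT stood in 5 of the 12 windows and in 32.01% of 35116 promoters. CACGTG, the palindromic E-box, stood in the windows of DHODH and PPAT and in 6.34% of promoters. The E2F motif, searched as TTTGGCGC, TTTCCCGC, TTTGCCGC or TTTCGCGC on both strands, stood in the TYMS window at -39 and in 2.79% of promoters. None of these letters was found in the windows of CTPS1, CTPS2 or UMPS. The windows of CTPS1 had a GC content of 72% (the one shown) and 34.4%, those of CTPS2 63.6% (the one shown) and 76.4%, and the median over all promoters was 58%. The motifs do not overlap one another, and a match is a description of letters only.

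CTPS1 RNA was about 11 times lower in A549/DDP than in A549, while RNA of its paralog CTPS2 was at a like level in both lines. RRM2 was close to 2 times higher in A549/DDP. In CPM, the other enzymes differed by less than 1.5 times. CTPS1 was among the 8% of 16406 genes tested that passed an adjusted p of 0.05 as lower, and RRM2 among the 6.85% that passed as higher (edgeR's quasi-likelihood test on input counts). The enzymes were listed with this contrast in view, so these calls only describe them. The median log2 fold change of the 10 was 0.01, beside -0.0016 over all genes tested.

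CTPS1 (ENSG00000171793.13, chr1:40979696-41012565, plus strand) had 1011 and 843 CPM in the A549 inputs and 77.02 and 87.52 CPM in the A549/DDP inputs. CPM is the count relative to the total of the library, after TMM scaling between libraries, and it is not scaled for gene length. The A549 libraries were both far above the A549/DDP libraries, and the gap between the lines was much wider than that between replicates. The log2 fold change was -3.49 with a standard error (SE) of 0.19 and a 95% interval from -3.95 to -3.04, or 11.3-fold lower. Among 11348 genes with a mean of at least 5 CPM, it was the 104th lowest fold change.

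CTPS2 (ENSG00000047230.14, chrX:16587999-16712910, minus strand) had 24.0 and 36.5 CPM in A549 and 30.3 and 32.2 CPM in A549/DDP. The A549/DDP libraries lay between the A549 libraries, and the log2 fold change was 0.05 with a 95% interval from -0.70 to 0.79. CTPS1 therefore made up 97.7% and 95.9% of the counts of the CTP synthase pair in A549, 71.7% and 73.1% in A549/DDP, and 98.5% and 95.5% in the second A549 pair. Per length, the share of CTPS1 in the summed TPM of the pair was 99.3% and 98.1% in A549 and 93.3% and 90.5% in A549/DDP. CTPS1 stayed the more abundant transcript of the pair in each of these libraries.

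**Figure D1:**
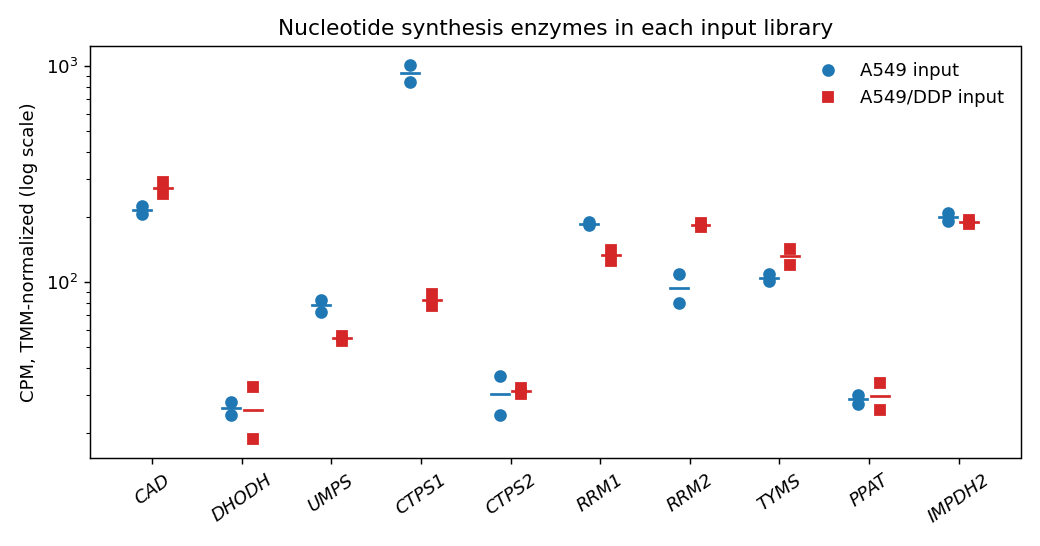
Points give the TMM-normalized CPM (log axis) of each enzyme in each of the 4 input libraries, and bars the mean of 2 libraries. CTPS1 drops from 1011 and 843 CPM in A549 to 77.02 and 87.52 CPM in A549/DDP, RRM2 is higher in both A549/DDP libraries, and most other enzymes lie close together in the lines.

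None of the enzymes ahead of the CTP synthases in pyrimidine synthesis differed in CPM by as much as CTPS1. CAD (ENSG00000084774.13, chr2:27217369-27243943) had 206 and 223 CPM in A549 and 289 and 254 CPM in A549/DDP. Its libraries did not overlap between the lines, and its log2 fold change was 0.34 with a standard error of 0.16. DHODH (ENSG00000102967.11, chr16:72008744-72027659) had 24.2 and 27.8 CPM in A549 and 32.5 and 18.6 CPM in A549/DDP. The A549/DDP replicates lay on either side of both A549 values, and the 95% interval of the log2 fold change ran from -0.91 to 0.85. UMPS (ENSG00000114491.13, chr3:124730452-124749273) had 82.5 and 72.8 CPM in A549 and 53.0 and 56.3 CPM in A549/DDP. It was lower in both A549/DDP libraries, by a log2 fold change of -0.51 with a standard error of 0.20.

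The subunits of ribonucleotide reductase stood on opposite sides. RRM2 (ENSG00000171848.13, starting at base 10122568 of chromosome 2, plus strand) had 79.3 and 108 CPM in A549 and 180 and 188 CPM in A549/DDP. Both A549/DDP libraries lay above both A549 libraries, with a log2 fold change of 0.97, a standard error of 0.21 and a 95% interval from 0.47 to 1.48. RRM1 (ENSG00000167325.14, chr11:4094685-4138932, plus strand) had 188 and 183 CPM in A549 and 141 and 124 CPM in A549/DDP. It was lower in both A549/DDP libraries, with a log2 fold change of -0.49 and a standard error of 0.17. RRM2 thus made up 29.7% and 37.2% of the counts of the subunit pair in A549 and 56.1% and 60.2% in A549/DDP. In the second A549 pair RRM2 was 9 of 13 and 17 of 24 counts of the pair, or 69.2% (exact 95% interval 38.6 to 90.9) and 70.8% (48.9 to 87.4), above the shares in A549/DDP, so the difference in this share was not seen against those shallow libraries. With A549/DDP replicate 1 or 2 left out the log2 fold change of RRM2 was 0.98 or 0.93. RRM2B, the alternative small subunit known as a p53 target, had 91.8 and 48.4 CPM in A549 and 27.1 and 41.2 CPM in A549/DDP, with no call. RRM2 was 46.4% and 69.1% of the counts of the small subunits in A549 and 86.9% and 82.0% in A549/DDP. In the second A549 pair it was 9 of 27 and 17 of 28 counts, or 33.3% and 60.7%. The exact 95% intervals of those shares were 16.5 to 54.0 and 40.6 to 78.5.

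TYMS (ENSG00000176890.15, chr18:657653-673578, plus strand) had 100 and 108 CPM in A549 and 120 and 142 CPM in A549/DDP. Both A549/DDP libraries lay above the A549 libraries, with a log2 fold change of 0.33 and a standard error of 0.18. The gene shares its span with TYMSOS and ENOSF1, and the counting was not stated to use strand, so its value is uncertain. PPAT (ENSG00000128059.8, chr4:56393362-56435615, minus strand) had 27.2 and 29.8 CPM in A549 and 33.9 and 25.5 CPM in A549/DDP. PPAT shares part of its span with PAICS, a later enzyme of purine synthesis, so reads there may be uncertain. IMPDH2 (ENSG00000178035.11, chr3:49024325-49029398) had 208 and 190 CPM in A549 and 193 and 185 CPM in A549/DDP. The lines overlapped for both purine enzymes, and the 95% interval of the log2 fold change ran from -0.64 to 0.75 for PPAT and from -0.46 to 0.31 for IMPDH2. IMPDH2 made up 82.1% and 80.4% of the counts of IMPDH1 and IMPDH2 together in A549 and 72.1% and 72.6% in A549/DDP. In the second A549 pair it was 7 of 8 and 20 of 24 counts, or 87.5% and 83.3%. The exact 95% intervals of those shares, 47.3 to 99.7 and 62.6 to 95.3, include the A549/DDP shares.

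Over the 10 enzymes, the libraries of the lines did not overlap for CAD, TYMS and RRM2, which were higher in A549/DDP, nor for CTPS1, UMPS and RRM1, which were lower. Over all genes tested 29.7% were higher and 32.7% lower in this way.

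The order of the enzymes by level was read on the TPM scale, which is per length. CTPS1 stood first in A549 at 1538 and 1214 TPM, far above IMPDH2 at 253 and 247 TPM. RRM1, CAD and TYMS followed between 133 and 193 TPM, with RRM1 and CAD overlapping, and likewise CAD and TYMS. UMPS and RRM2 overlapped between 70.7 and 104 TPM. DHODH, PPAT and CTPS2 were the lowest, between 10.6 and 36.1 TPM. In A549/DDP CTPS1 had 173 and 135 TPM and was in place 4 by its mean, where its range overlapped those of TYMS and RRM1. IMPDH2 led there at 243 and 220 TPM, followed by RRM2 at 220 and 195 TPM. TYMS had 125 and 222 TPM in A549/DDP, a spread that covered the whole CTPS1 range. CAD and UMPS overlapped at 54.2 to 101 TPM, and DHODH, PPAT and CTPS2 were again the lowest, at 12.4 to 35.6 TPM.

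The share of CTPS1 in the summed counts of the 10 enzymes does not depend on how libraries are scaled to one another. It was 51.8% (exact Clopper-Pearson 95% interval 51.4 to 52.2) and 46.2% (45.8 to 46.6) in A549, and 6.71% (6.44 to 6.98) and 7.87% (7.60 to 8.14) in A549/DDP. The intervals cover counting error only, and the replicates of each line lay further apart than their intervals. In the second A549 pair CTPS1 had 65 of 117 and 63 of 142 counts, or 55.6% (46.1 to 64.7) and 44.4% (36.0 to 52.9). The shares of all 4 A549 libraries thus lay far above those of the A549/DDP libraries, although the second pair held few counts. Per length, the share of CTPS1 in the summed TPM of the 10 was 62.9% and 53.9% in A549. It was 15.2% and 11.9% in A549/DDP, and 36.8% and 57.5% in the second A549 pair. CTPS2 had 1 and 3 counts in the second pair, and the other 8 enzymes had 20 counts or fewer in each library.

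**Figure D2:**
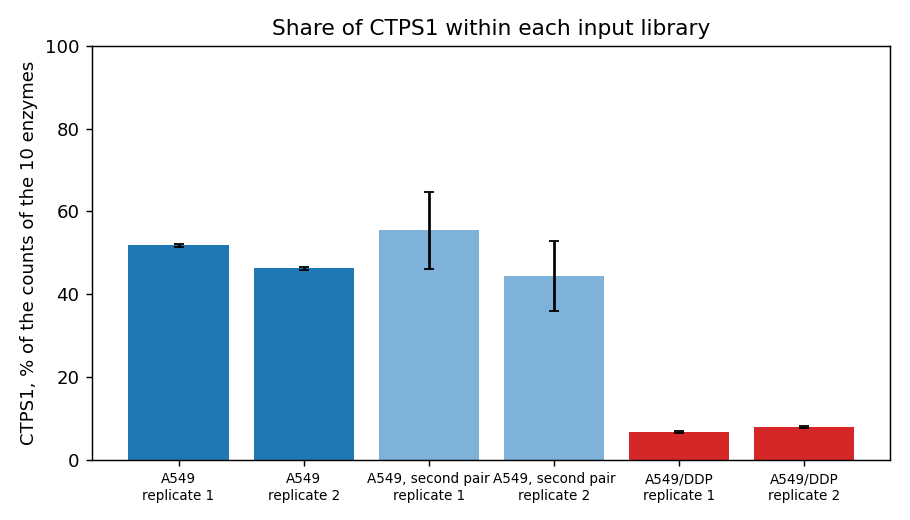
Bars give CTPS1 as a percent of the summed expected counts of the 10 enzymes in each of 6 input libraries, with exact 95% intervals that cover counting error. The 4 A549 libraries lie between 44.4% and 55.6%, and the A549/DDP libraries at 6.71% and 7.87%.

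With the second A549 pair in place of the first, CTPS1 had a log2 fold change of -2.70, at a median of 0.80 over all genes, or -3.50 relative to that median. Both comparisons use the same A549/DDP libraries. RRM2 had a log2 fold change of 0.77 there, which is -0.03 relative to the median. CAD, DHODH and RRM1 lay 1.64, 0.81 and 0.74 above the median of all genes with the second pair. There CAD rested on 5 and 7 counts, DHODH on 2 and 0, and RRM1 on 4 and 7. PPAT was at -1.67 relative to that median, on 8 and 5 counts, and TYMS at -0.68, on 13 and 16. CTPS2, UMPS and IMPDH2 lay between -0.04 and 0.11.

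CAD changed direction with the scale, and its estimated transcript mix moved with that. In TPM, CAD was lower in A549/DDP, at 80.5 and 101 TPM against 133 and 182 TPM in A549, although its CPM was higher. Its log2 fold change was -0.78 by limma on log2(TPM + 1). The mean transcript length of CAD, weighted by the estimated abundance of its transcripts, was 2347 and 2143 bases in A549 and 5636 and 4013 bases in A549/DDP. The ratio of 2.15 between the lines was larger in size than that of 98.8% of 10513 genes with at least 100 counts in each input. Whether reads came from shorter CAD transcripts or from partly covered long ones in A549 was not tested.

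The weighted length of RRM2 went the other way, from 1733 and 2088 bases in A549 to 1380 and 1627 bases in A549/DDP. Its log2 fold change on the TPM scale was 1.36 by limma on log2(TPM + 1), above the 0.97 from counts. CTPS2 and DHODH were also longer in both A549/DDP libraries, with ratios of 1.25 and 1.17, and RRM1 was shorter, with a ratio of 0.895. Over the genes compared, 19.3% were longer and 17.2% shorter in both A549/DDP libraries. CTPS1 had 1060 and 1270 bases in A549 and 804 and 1135 bases in A549/DDP, and those ranges overlapped, as did the ranges of UMPS, TYMS, PPAT and IMPDH2.

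A further 46 genes of nucleotide supply, listed by textbook role, were set beside the enzymes. Of these, 2 were called higher and 5 lower in A549/DDP, which is 15.2% against 14.9% of all genes tested, and their median log2 fold change was 0.04. That share is close to the background, where 8% of genes were called lower and 6.85% higher. The counts by role below rest on few genes each and only name the genes called. The values below are log2 fold changes of CPM with edgeR's quasi-likelihood test and Benjamini-Hochberg adjustment over all genes.

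Of 6 folate one-carbon genes, 2 fell and 4 were not called. MTHFD2, a mitochondrial enzyme of the folate cycle that feeds formyl groups to purine synthesis, had 318 and 501 CPM in A549 and 90.8 and 95.2 CPM in A549/DDP. Its libraries did not overlap, and it fell by 2.14 on the log2 scale (SE 0.25, adjusted p = 0.00614). MTHFD1L, which releases formate from mitochondria, had 171 and 189 CPM in A549 and 56.3 and 79.1 CPM in A549/DDP and fell by 1.41 (SE 0.22, adjusted p = 0.0132). MTHFD1L was called in 9 of 15 alternatives, and had a value of 0.70 with the second A549 pair, where the median of all genes was 0.80. Of those not called, SHMT1, SHMT2 and MTHFD1 had log2 fold changes between 0.14 and 0.39.

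Uridine phosphorylase UPP1, which splits uridine to uracil, was the only 1 of 13 salvage genes called. It had 128 and 65.4 CPM in A549 and 8.20 and 11.4 CPM in A549/DDP, and fell by 3.30 on the log2 scale (SE 0.40, adjusted p = 0.00682). Of 6 breakdown genes, 2 fell. DPYD, the rate-limiting enzyme of uracil and thymine breakdown, had 28.6 and 11.1 CPM in A549 and 2.56 and 1.98 CPM in A549/DDP, which fell by 3.13 (SE 0.63, adjusted p = 0.0260). The A549 replicates of UPP1 and DPYD differed widely, and neither gene was called with the second A549 pair, where UPP1 had a log2 fold change of -1.36 and DPYD of -0.86. DPYD was called in 8 of 15 alternatives and was lost without A549 replicate 1. NT5C2, a cytosolic nucleotidase, had 261 and 330 CPM in A549 and 62.3 and 89.1 CPM in A549/DDP and fell by 1.96 (SE 0.24, adjusted p = 0.00714).

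Of 11 purine synthesis genes beside PPAT and IMPDH2, only ADSS1 was called. ADSS1, the adenylosuccinate synthase known from muscle, had 6.17 and 6.71 CPM in A549 and 47.1 and 29.8 CPM in A549/DDP, and rose by 2.58 on the log2 scale (SE 0.37, adjusted p = 0.0104). Of 8 further pyrimidine and deoxynucleotide genes, only DCTD was called. DCTD, the dCMP deaminase that makes the substrate of TYMS, had 48.0 and 44.3 CPM in A549 and 97.0 and 80.8 CPM in A549/DDP and rose by 0.95 (SE 0.20, adjusted p = 0.0319). DCTD was called in 8 of 15 alternatives and was lost without either A549/DDP library. The other 39 genes had log2 fold changes between -1.04 and 2.45 without a call. The high end was SLC29A2, a nucleoside transporter chosen here after its values were seen, at 1.28 and 4.35 CPM in A549 and 16.1 and 14.8 CPM in A549/DDP. Values of NME1 and NME2, which have a readthrough transcript, are uncertain.

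**Figure D3:**
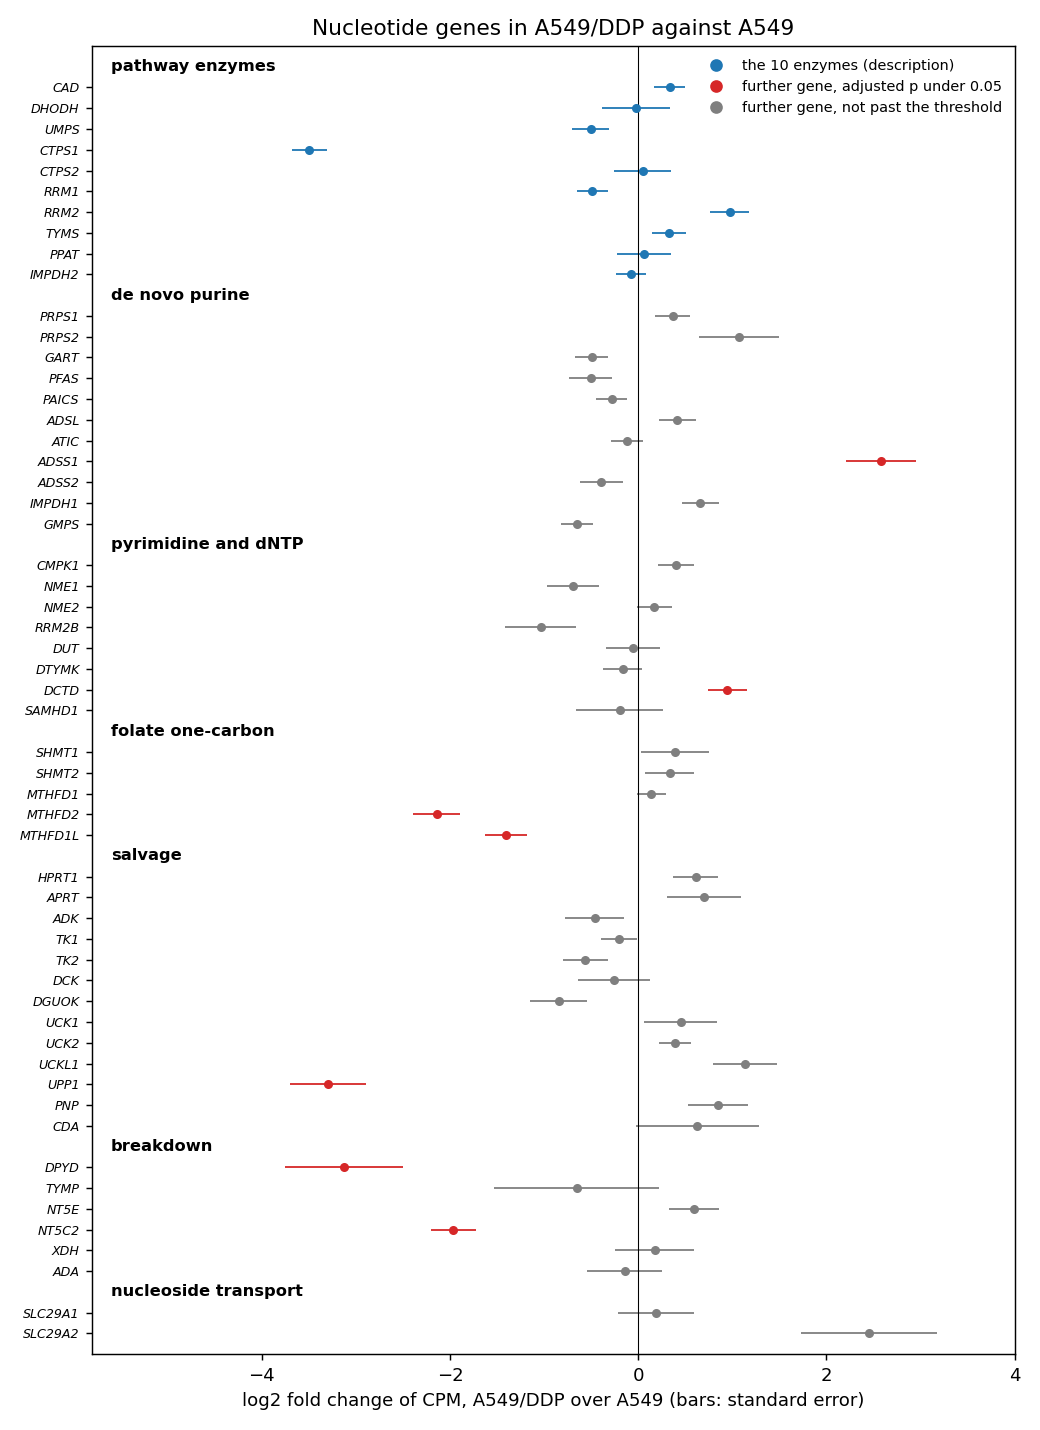
Points give the log2 fold change of CPM, A549/DDP over A549, with bars of 1 standard error, for the 10 enzymes and further nucleotide genes by role. Blue marks the 10 enzymes, shown as description, and red the further genes past an adjusted p of 0.05 over all genes tested. CTPS1 lies at -3.49, UPP1 at -3.30 and ADSS1 at 2.58.

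RRM1, RRM2 and TYMS are cell-cycle genes, so replication and mitosis genes are given beside them. Of 20 such genes 6 rose and 5 fell, 55% against 14.9% of all genes tested, and the median log2 fold change was 0.44. The list was drawn up with earlier results of these data known, so its share only describes it. Since the list mixes rises and falls, its median describes neither. The genes that rose were the helicase subunits MCM2, MCM5 and MCM7, the clamp PCNA and the licensing factors CDC6 and CDT1. The genes that fell were MKI67, TOP2A, AURKB, BUB1 and BIRC5, known from mitosis and the late cell cycle. These 11 are named because they passed the test. Over 15 alternatives PCNA was called in 14, TOP2A in 13, BUB1 and BIRC5 in 12, CDC6 in 10, MCM5 and CDT1 in 9, MCM2 and MCM7 in 8, MKI67 in 7 and AURKB in 5. The adjusted p of AURKB was 0.0493 by edgeR, and from 0.00265 to 0.907 over the alternatives. AURKB was lost without A549 replicate 2. AURKB, MCM7 and MKI67 were among the genes lost without either A549/DDP library, and further calls of a rise were lost there too. TOP2A, the topoisomerase of chromosome segregation, had 983 and 1149 CPM in A549 and 259 and 292 CPM in A549/DDP and fell by 1.95 on the log2 scale (SE 0.17, adjusted p = 0.00314 in edgeR's test). MKI67 had 795 and 923 CPM in A549 and 540 and 574 CPM in A549/DDP and fell by 0.62 (SE 0.16, adjusted p = 0.0474 in edgeR's test). With the second A549 pair the log2 fold change of MKI67 was 1.02, above the median of 0.80 over all genes. MCM7 had 132 and 197 CPM in A549 and 347 and 377 CPM in A549/DDP and rose by 1.14 (SE 0.23, adjusted p = 0.0256 in edgeR's test). MCM4 had 67.0 and 188 CPM in A549 and 375 and 410 CPM in A549/DDP without a call. RRM2 was thus higher beside rises of 6 replication genes and falls of 5 genes of mitosis and the late cell cycle, and the part of the cell cycle in its difference was not tested.

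The 5 expressed genes whose pattern over the 4 inputs was most like that of CTPS1 were NUAK2, AXL, AMOTL2, OXTR and PLD6. Likeness was the Euclidean distance between log2 CPM values centred on each gene's own mean, over 11348 genes. With 2 libraries a line, this distance mainly follows the size of the fold between the lines. The 5 genes had log2 fold changes from -3.61 to -3.26, beside -3.49 for CTPS1. Joint regulation was not tested. The distance ran from 0.27 for NUAK2 to 0.41 for PLD6. NUAK2 had 422 and 402 CPM in A549 and 39.5 and 46.4 CPM in A549/DDP. AXL had 1152 and 749 CPM in A549 and 80.1 and 75.9 CPM in A549/DDP. Of the nucleotide genes UPP1 was the nearest, at place 26 with a distance of 0.60, and DPYD stood at place 106. The nearest of the other 9 enzymes was UMPS at place 3171, and RRM2 was the farthest of them, at place 9552.

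The m6A-seq lists held few peaks on these enzymes. In the lists of A549 replicates 1 and 2 there were 26320 and 14576 called peaks, of which 1 and 0 lay on the 10 enzymes. In the A549/DDP lists there were 27244 and 10661 peaks, of which 6 and 4 did. Replicate numbers follow the labels, where those of A549 are exchanged against the names of the deposited lists. The lists give a p-value for each peak and no read depth or fold, so a missing call cannot be told from low coverage.

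At least 1 peak was called in 5 of the 10 enzymes: CTPS1, CTPS2, RRM1, RRM2 and TYMS. Over all genes tested the share with a peak in any list was 57%, and over 6589 genes within the enzymes' range of mean CPM it was 81.4%. By list, enzymes with a peak numbered 1 and 0 of 10 in A549 and 3 and 2 of 10 in A549/DDP. The shares over the genes in that range were 61% and 48.1% for the A549 lists and 66.9% and 37.1% for the A549/DDP lists, and over all genes tested 43.7%, 30.6%, 40.7% and 22.2% in the same order. TYMS was the 1 enzyme with a peak in both A549/DDP lists and neither A549 list, a pattern of 1.97% of all genes tested and 3.41% of those in the range. None of the 10 had a peak in both A549 lists and neither A549/DDP list, against 4.62% and 4.39%, and none in all 4 lists, against 13.9% and 24.9%. CAD and IMPDH2 had no peak in any list although each had at least 184.5 CPM in every input, and DHODH, UMPS and PPAT had none either.

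CTPS1 had 1 peak, in A549/DDP replicate 1, the line with less of its RNA. It ran from 41009548 to 41012515 on chromosome 1 with 994 bases in 3 exon blocks (42, 94 and 858 bases) and the authors' p of 0.00017. Its end lay 50 bases before the RefSeq end of the gene. No peak on CTPS1 was called in either A549 list, where its RNA was about 11 times as abundant in the inputs.

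CTPS2 had 3 peaks, all in A549/DDP replicate 2. Those at chrX:16588251-16588350 and chrX:16589591-16589740 lay 252 and 1592 bases before the end of the gene, with the authors' p of 8.9e-06 and 7.9e-07. The other had 100 bases in 2 exon blocks between 16693465 and 16698312, nearer the start of this minus-strand gene, with a p of 1.4e-05. The paralogs were thus each called in 1 of the 2 A549/DDP lists, and not in the same one.

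TYMS had the only region of the 10 enzymes called in more than 1 list. That region, chr18:657703-658364, had 2 exon blocks and began 50 bases after the gene's start. It was called in both A549/DDP lists, with the authors' p of 2e-07 in replicate 1 and 0.001 in replicate 2, and in neither A549 list. Over all genes 1173 of 37903 merged regions (3.09%) had this pattern. On the opposite strand, A549 replicate 1 held a TYMSOS peak with a p of 6.2e-08, of which a block of 158 bases from 657842 to 657999 lay within the TYMS region. The libraries were made with a strand-specific method, and how the caller used strand is not given in the sources used here. TYMS had a further 2 regions in A549/DDP replicate 1, at 670769 to 671380 and 673282 to 673380, both with a p of 7.1e-07.

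RRM2 had 2 peaks, both in A549/DDP replicate 1. The peak at chr2:10122774-10123184 began 206 bases after the RefSeq start with a p of 0.0013, and the peak at chr2:10129536-10129784 had a p of 0.022. The RefSeq span of RRM2 reaches to 10211010, and a peak in A549 replicate 1 at 10210328 to 10210727, near that end, was assigned by the authors to ENSG00000163009.8, which had no symbol here. RRM1 had 1 peak, in A549 replicate 1, at chr11:4138230-4138329, 603 bases before the end of the gene, with a p of 0.00063. The subunits of the reductase were thus called in different lines, each in 1 list of 2. With only peaks at a p at or below 1e-05, no region of the enzymes was left in both lists of a line.

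**Figure D4:**
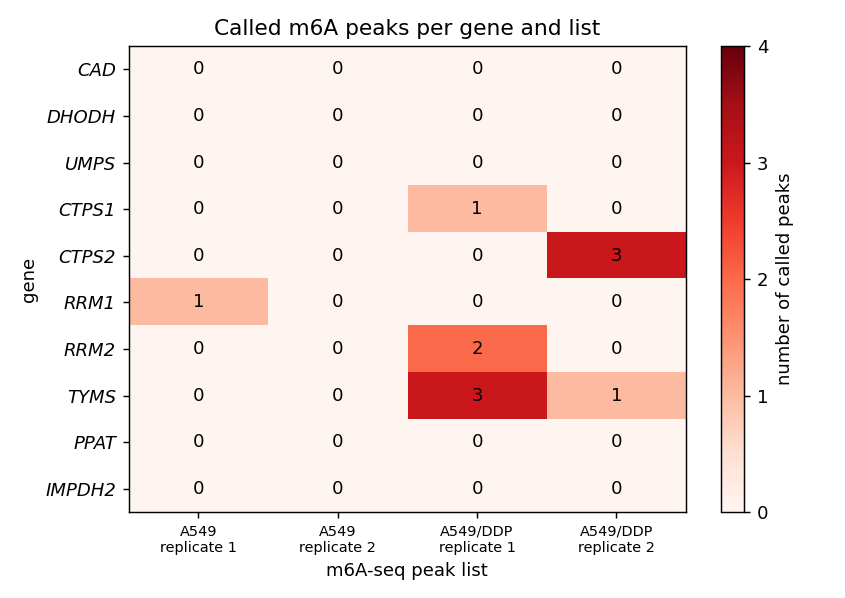
The grid gives the number of called m6A peaks on each enzyme in each of the 4 peak lists. Numbers run from 0 to 3, TYMS alone has peaks in 2 lists, and CAD, DHODH, UMPS, PPAT and IMPDH2 have none.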

How the data were processed

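Poly(A) RNA of A549 and A549/DDP cells was sequenced as input (2 libraries a line) and after m6A pull-down (2 a line), with a second pair of A549 inputs. The authors deposited RSEM-style gene tables of the inputs, with expected counts that were not normalized, TPM, FPKM and a transcript length weighted by abundance. By their definition the deposited TPM and FPKM are scaled for length and depth. The peak lists that the authors deposited, 1 for each m6A-seq library, hold a p-value per peak, not said to be raw or adjusted. The submitters' processing notes name STAR, RSEM, bedtools and hg38 without versions or roles. The peak caller and the authors' test of expression are not given in the sources used here. Coordinates of peaks are those of the lists, counted from 1, and genes, starts and upstream sequences are those of RefSeq on GRCh38.p14.

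Identifiers were matched to symbols by Ensembl ID. After rounding of the expected counts, edgeR 4.0.16 in R 4.3.3 served for the filter on low counts (filterByExpr), TMM scaling and the quasi-likelihood test on the 4 inputs of the main comparison, with Benjamini-Hochberg adjustment over 16406 genes and a threshold of 0.05. The standard error was taken as the log2 fold change over the root of the F statistic, and 95% intervals take the t quantile at edgeR's degrees of freedom, both approximations. Peaks of 1 strand were merged if their blocks overlapped by 1 base or more. Lengths were compared over genes with at least 100 counts in each input. The scripts were tested on simulated data. Alternatives used DESeq2 1.42.0, limma 3.58.1 on log2 TPM or FPKM with a pseudocount of 1 or 0.1, other filters and scaling, the second A549 pair, a block and leaving out each library. Python 3.11.15, pandas 2.3.3, scipy 1.17.1 and matplotlib 3.10.9 served for shares, peaks and plots.

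The members, the lists and the rules were chosen with earlier results of these data known. Named were the 10 enzymes, the further nucleotide genes past the threshold, up to 4 replication or mitosis genes with the largest mean CPM, and the 5 genes nearest to CTPS1, with RRM2B and IMPDH1 added as paralogs. Chosen after their values were seen were SLC29A2, the uncalled folate genes, NME1 and NME2 (for their shared reads) and the replication or mitosis genes past the threshold. Of the 6 folate genes 1 is counted with its list and is not reported here by itself.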

Additional observations from a re-analysis of the deposited data

How the results depend on the processing

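CTPS1 was lower in A549/DDP under each of 15 alternatives, with a log2 fold change from -3.63 to -2.70, given as description. RRM2 was between 0.75 and 1.41 on the log2 scale, where its 0.77 with the second A549 pair lay at -0.03 relative to the median of 0.80 over all genes in that fit. With that pair MTHFD1L at 0.70 and MKI67 at 1.02 changed sign, as did RRM1 at 1.53, UMPS at 0.91, DHODH at 1.60, IMPDH2 at 0.75 and PPAT at -0.88, all before the median is taken off. CAD changed sign in limma on TPM or FPKM, from -0.79 to -0.72. Enzymes near no difference in the main fit also changed sign, among them CTPS2 at 0.05 and DHODH at -0.03. CTPS2 ran from -0.27 to -0.20 in those limma fits, and DHODH was at 0.02 with upper-quartile scaling. The causes were not tested.

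Counts below are calls higher and lower, in that order, where they left the main counts by over 1.5 times. The counts for the enzymes only describe them, since they were listed with this contrast in view. The enzymes (1 and 1) gave 0 and 0 in limma without the filter, where none of 22802 genes was called. There 1999 and 2520 of all genes had an unadjusted p under 0.05. With the second A549 pair 2 enzymes were higher, CAD and RRM1, while RRM2 was not called. In that fit 2371 of 13815 genes tested were called higher and 1387 lower, at a median log2 fold change of 0.80. RRM1 was lower in the main comparison. With both pairs 0 enzymes were higher, in a fit where 335 of 16517 genes tested were called higher. The further genes (2 and 5) gave 6 and 8 in DESeq2, 6 and 9 without a filter, 8 and 8 with the second pair, and 1 and 3 with both pairs and in limma on log2(TPM + 1), log2(FPKM + 1) or log2(TPM + 0.1). With at least 10 counts in every library 5 were higher. The replication and mitosis genes (6 and 5) gave 10 higher without a filter and with at least 10 counts, 10 and 2 with the second pair, 1 and 0 with both pairs, 3 lower with upper-quartile scaling, and 2 and 3, 3 and 3, and 1 and 3 in the 3 limma fits in the order above. In limma without the filter both lists gave 0 and 0, while 6 and 9 of the further genes and 5 and 7 of the replication and mitosis genes had an unadjusted p under 0.05. With both pairs 5 of the latter were lower at an unadjusted p under 0.05.

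With each input library left out in turn, calls ran from 0 to 1 higher and 1 to 2 lower for the enzymes, 1 to 6 and 5 to 11 for the further genes, and 1 to 10 and 3 to 7 for the replication and mitosis genes. A line then had 1 library, assumed to vary like the other line. With the replicate number as a block the further genes gave 5 higher and the replication and mitosis genes 10. Labels do not say that equal numbers mark a shared culture, and the deviations of same-numbered inputs correlated at 0.0259 over genes, so the numbers were not taken to pair the libraries.

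Regions of the enzymes called in both A549/DDP and neither A549 list numbered 1, and 0 with peaks at a p at or below 1e-05. With 1 list left out they ran from 1 to 6, those in both A549 and neither A549/DDP list from 0 to 1, and those in all 4 lists stayed at 0. The depth of the m6A-seq libraries is unknown, and the second A549 pair held 65 and 63 counts of CTPS1, so lower enzymes there rest on few counts.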
